A study of Mus musculus with 8 samples.

Results

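DDX5 is a DEAD-box RNA helicase, and eCLIPseq maps the RNA stretches that a protein contacts in cells by cross-linking it to RNA, pulling it down and sequencing the protected fragments. The genes described here are 10 members of the Wnt pathway and of the intestinal crypt: Apc, Axin2, Ctnnb1, Tcf7l2, Lgr5, Myc, Ccnd1, Sox9, Cd44 and Ephb2. Their peaks were those lying on the gene and on its strand in the GENCODE M21 annotation of GRCm38 (mm10). They made up 113 of 16455 colon mAb peaks, 48 of 9146 colon rAb peaks and 14 of 1278 peaks of the small intestine. All samples came from C57BL/6 mice labelled wild type, and intestinal epithelial cells (IECs) were released with EDTA. The small intestine groups held 2 CLIP and 2 input samples from 8-week adult females, merged into 1 list of reproducible peaks. The colon groups held 1 CLIP and 1 size-matched input sample under each antibody name, mAb and rAb. Both carry the same antibody catalogue entry, so what separates the names is not given in the sources used here. The colon growth protocol speaks of 120-day Apcfl/+ CDX2Cre mice, in which Cre recombinase driven by Cdx2 would delete part of a single Apc copy in the colon. That conflicts with the genotype label and with the study's methods, which describe young adult wild-type females for the eCLIPseq of IECs, and the peaks do not settle it. Colon libraries were made with the single-end and small intestine libraries with the paired-end protocol, so tissue, protocol and any difference in age cannot be told apart between the tissues. With 1 list per group there was no spread between samples, and every comparison below is a description without a test.

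Wnt ligands act through β-catenin, the product of Ctnnb1. Without a ligand, a destruction complex scaffolded by APC and AXIN proteins marks β-catenin for breakdown, and with a ligand β-catenin enters the nucleus and joins TCF factors such as TCF7L2. This signal maintains the LGR5-positive stem cells at the crypt base, and loss of Apc in the colon is the classic first step towards adenoma. DDX5 is known as a coactivator of β-catenin/TCF transcription. The peaks below give where pull-down reads gathered on RNAs of the pathway, and a called peak alone does not show enrichment over input.

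Each peak carried a log2 fold change of IP over input and a −log10 P-value. A peak above 3 for both, the cutoff of the study, is called a site here. The small intestine list held sites only (100% of its peaks), so a gene absent from it had no reproducible peak past both cutoffs. All 10 genes had a called peak in the colon mAb list, where 22.5% of the 22028 protein-coding genes had one. In the colon rAb list 7 of 10 had one, against 15.5% of protein-coding genes, and Lgr5, Sox9 and Ephb2 had none. Neither expression nor gene length was matched in these shares, and the 10 genes were chosen with earlier results known. Nothing particular to these genes is therefore read from the shares. Sites were rare. The colon mAb list had 1 member site, on Ctnnb1, where 1.22% of all called peaks were sites and 2.58% of the called protein-coding genes had a site. The colon rAb list had 1, on Cd44, where these shares were 1.99% and 2.84%. In the small intestine all 14 member sites lay on Ctnnb1, and 1.99% of protein-coding genes had a site.

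**Figure D1:**
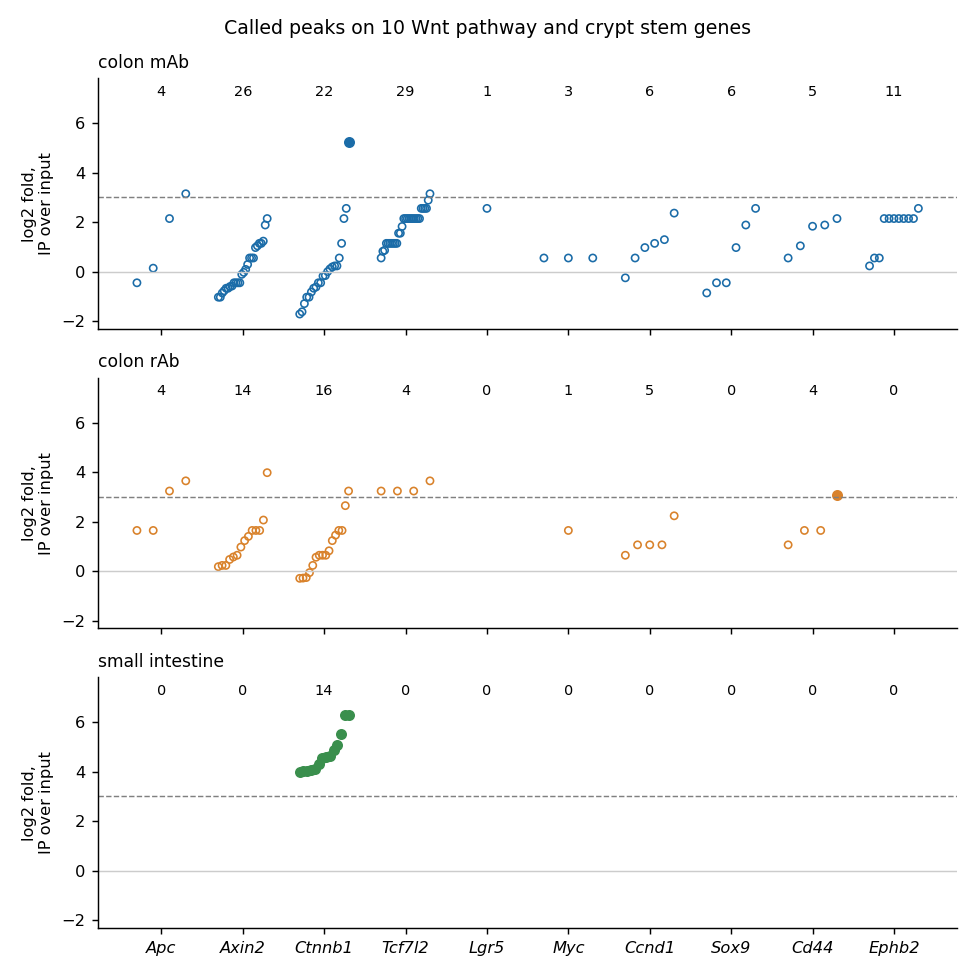
Log2 fold of IP over input for every called peak on the 10 genes, 1 panel per list. Filled points are sites, open points other peaks, the dashed line marks the cutoff of 3 and the number above each gene counts its peaks. Filled points appear on Ctnnb1 in the colon mAb list (5.24) and the small intestine list (3.99 to 6.30), and on Cd44 in the colon rAb list (3.07).

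The sequences below are those under the sites. They are given 5′ to 3′ on the RNA strand from GRCm38, with runs of 3 or more G in capitals. The first set lies at the start of Ctnnb1 intron 1, where the colon mAb site lay among 10 small intestine sites. It shows the mAb site and 4 of these 10 that were picked for their G runs. Last comes the one of the 10 with the highest fold, which holds none.
Ctnnb1 colon mAb site, middle 30 bases, chr9:120933825-120933854, plus strand: cgcGGGGGcGGGGtGGGcGGGGGcctcgcc
Ctnnb1 small intestine, chr9:120933704-120933783, plus strand: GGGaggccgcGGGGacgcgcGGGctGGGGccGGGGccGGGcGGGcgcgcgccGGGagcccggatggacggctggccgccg
Ctnnb1 small intestine, chr9:120933784-120933809, plus strand: tGGGGGGtGGGGaccgcggttcgcgt
Ctnnb1 small intestine, chr9:120934049-120934110, plus strand: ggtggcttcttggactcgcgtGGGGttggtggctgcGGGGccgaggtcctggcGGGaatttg
Ctnnb1 small intestine, chr9:120934176-120934203, plus strand: tccgaaacctGGGcttGGGGGaGGGGGa
Ctnnb1 small intestine, chr9:120933896-120933918, plus strand: cgtcccctctgtccctcgtggag

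In the last exon of Ctnnb1 the small intestine sites differed among themselves, and the middle 30 bases of a G-rich and of the highest of them are shown.
Ctnnb1 small intestine, chr9:120959819-120959848, plus strand: tagagttgctgagaGGGctcgaGGGGtGGG
Ctnnb1 small intestine, chr9:120960102-120960131, plus strand: gttagtttttaagtagtgttatgttctagt

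The Cd44 site is shown because near copies of it lie elsewhere in the genome, and the Rnf43 site because this gene of the wider pathway had a site in both colon lists.
Cd44 colon rAb site, chr2:102829353-102829483, minus strand: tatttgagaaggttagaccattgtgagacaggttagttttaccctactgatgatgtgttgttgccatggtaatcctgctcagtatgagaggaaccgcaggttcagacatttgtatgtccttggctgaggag
Rnf43 colon mAb site, chr11:87727334-87727421, plus strand: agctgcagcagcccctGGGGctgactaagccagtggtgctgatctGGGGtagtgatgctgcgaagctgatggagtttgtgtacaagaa

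Ctnnb1 (ENSMUSG00000006932.17), which encodes β-catenin, carried sites in the small intestine and in the colon mAb list. The mAb site overlapped small intestine sites at the start of the first intron of the gene. The gene spans chr9:120929216-120960507 on the plus strand, and its main transcript, Ctnnb1-201, has 15 exons. In the colon mAb list it had 22 peaks. At the site chr9:120933797-120933882 IP exceeded input by 5.24 on the log2 scale, with a −log10 P of 17.4. It rested on 51 IP reads against 2 input reads, as traced from its values, and its exact 95% interval for counting error was 3.31 to 8.32. It lay 397 bases after the transcript start, in intron 1 and in the 5′ UTR of an alternative transcript, and 88.4% of its bases were G or C. By its highest fold, Ctnnb1 stood 10th among the 147 genes with a site in that list. The other 21 peaks were lower, from −1.70 to 2.56. The next highest were 2.56 at chr9:120944438-120944505 with 4 reads over 1 and 2.15 at chr9:120948922-120948950 with 3 over 1, both in intron 1, and the lowest lay in exon 7. Of the 22 peaks, 12 were listed with a −log10 P of 0.

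In the colon rAb list Ctnnb1 had 16 peaks and no site. Its highest value, 3.24 with a −log10 P of 2.46, lay at chr9:120934142-120934189 in intron 1 and rested on 6 reads over 2, with an interval of 0.76 to 6.58. Within the mAb site, a rAb peak at chr9:120933818-120933862 had a fold of 2.65 and 4 reads over 2, with an interval of −0.15 to 6.12. The rAb and mAb intervals at this position overlapped. The third highest rAb value, 1.65, occurred in intron 1 and again in the last exon, and the lowest, −0.28, lay on exon 1.

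In the small intestine, Ctnnb1 had 14 sites, which is 1.10% of the list, and only 5 of the 491 genes with a site had more. The median of those genes was 2 sites. By its highest fold, Ctnnb1 stood 42nd among them. Some of its sites adjoined, and joining those within 10 bases of each other left 10 stretches. Sites of other genes were not joined, so the rank by number holds for sites as listed. Of the 14 sites, 10 lay between chr9:120933619 and 120934380, within 1000 bases after exon 1. The first of them began in the last bases of exon 1 and the others lay in intron 1 of the main transcript. Those at chr9:120933827-120933895 and chr9:120933896-120933918 also lay in the 5′ UTR of an alternative transcript. The log2 folds of the 10 sites ran from 3.99 to 6.30. Their −log10 P-values ran from 9.28 to 66.5, the highest being at chr9:120933827-120933895, which overlaps the colon mAb site. The fold there was 4.56. The next site, chr9:120933896-120933918, had 6.30. The remaining 4 lay in the 3′ UTR of exon 15, with folds of 4.04, 4.09, 5.08 and 6.30, the last at chr9:120960084-120960149. The third highest value, 5.52, lay at chr9:120934049-120934110. No small intestine site lay between these clusters, which are separated by exons 2 to 14. The colon lists had no site there either. Their 16 (mAb) and 8 (rAb) peaks there, of −1.70 to 2.56, lay below the fold cutoff that all small intestine peaks pass. Over all small intestine sites on protein-coding genes, 28.1% lay within 1000 bases after exon 1 and 14.5% in the last exon. For colon sites these shares were 24% and 5.85% (mAb), and 3.92% and 6.54% (rAb).

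**Figure D2:**
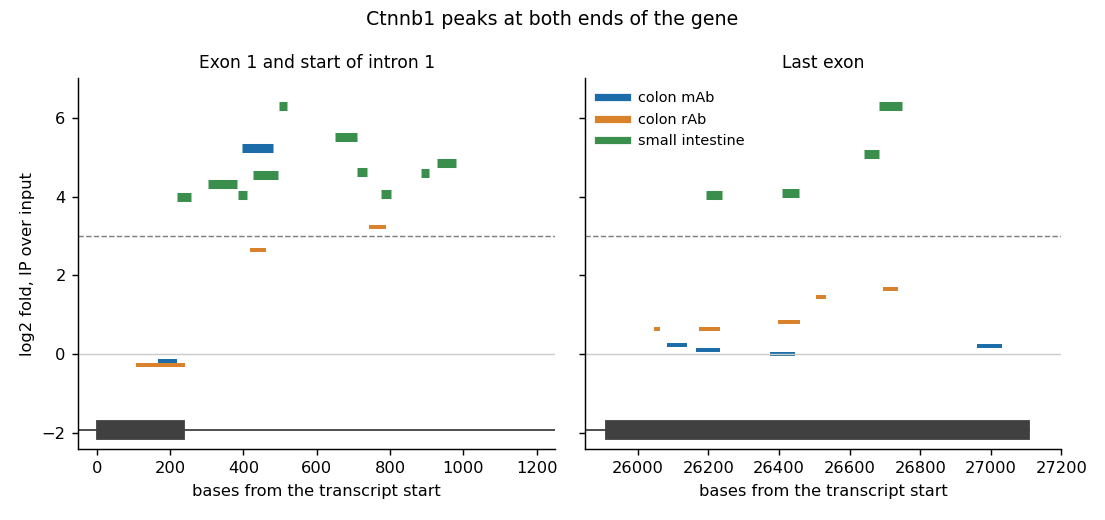
Ctnnb1 peaks of the 3 lists at the start (left) and end (right) of the main transcript. The horizontal axis gives bases from the transcript start, the vertical axis the log2 fold of IP over input, thick bars are sites, thin bars other peaks and the dark boxes below are exons. At the start of intron 1 the mAb bar (5.24) lies among the small intestine bars, and in the last exon the colon lists lie between 0.01 and 1.65 and the small intestine bars, all chosen above 3, at 4.04 to 6.30.

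At the end of the gene, colon peaks lay over 3 of the 4 small intestine sites. The small intestine site at chr9:120959592-120959640 (4.04) overlapped a mAb peak of 0.12, with an interval of −1.15 to 1.34 from 11 reads over 15. It also overlapped a rAb peak of 0.65, with an interval of −0.68 to 1.88 from 9 over 18. The site at chr9:120959809-120959857 (4.09) overlapped a mAb peak of 0.01 and a rAb peak of 0.83, the latter with an interval of −0.27 to 1.87. The site of 6.30 overlapped a rAb peak of 1.65, with an interval of 0.04 to 3.27. These positions were chosen by small intestine folds above 3 while the colon lists hold peaks of any fold, so the values stand side by side and no difference between the tissues is read from them. The small intestine values have no read counts and so no interval. At the end of exon 1, the small intestine site of 3.99 shared 2 of its 39 bases with a mAb peak of −0.17 and 23 with a rAb peak of −0.28. By base composition the median Ctnnb1 site of the small intestine had 68.7% G and C, from 30.3% to 90%, beside 59.7% over all sites of that list. The letters GGG stood in 10 of the 14 sites (71.4%), beside 66.3% of all sites. The letters were sought on the RNA strand only.

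Tcf7l2 (ENSMUSG00000024985.19), which encodes the TCF factor that recruits β-catenin to target genes in the crypt, had 29 colon mAb peaks and 4 rAb peaks, all below the P cutoff. The gene spans 191.8 kb of chromosome 19, and 27 of the 29 mAb peaks lay in introns more than 500 bases from an exon. The mAb folds ran from 0.56 to 3.15. The highest was at chr19:55778293-55778342 in intron 3, with 6 reads over 1 and a −log10 P of 1.70. It was followed by 2.89 from 5 reads over 1, and by 2.56, which occurred at 4 places from 4 reads over 1. Of the 29, 10 rested on 3 reads over 1, and 12 lay for the most part in repeat-masked sequence. The 4 rAb peaks, in introns 3 and 4, had folds of 3.24, 3.24, 3.24 and 3.65, from 3, 3, 3 and 4 IP reads over 1 input read. All 4 passed the fold cutoff and none the P cutoff, and none of their intervals began above 0.32.

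Apc (ENSMUSG00000005871.15), the destruction complex scaffold whose loss starts colonic adenomas, had 4 peaks in each colon list and no site. The gene lies at chr18:34220924-34322552, plus strand. Its mAb folds were −0.44 in exon 1 (5′ UTR), 0.15 in the coding part of exon 1, and 3.15 and 2.15 at adjoining stretches of exon 16. The 3.15 peak had 6 reads over 1, a −log10 P of 1.70 and an interval of 0.11 to 8.67. Its rAb folds were 1.65, 3.65 and 1.65 in the coding part of exon 16 and 3.24 in the 3′ UTR. The 3.65 peak had 4 reads over 1 and a −log10 P of 1.87. The mAb and rAb peaks on Apc lay at different positions, and none of them overlapped.

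Axin2 (ENSMUSG00000000142.15), a scaffold of the same complex that is also a direct Wnt target, had 26 mAb and 14 rAb peaks and no site. Its mAb folds centred near 0, with a median of −0.06. The highest were 2.15 and 1.89 in intron 1 and 1.24 in the 5′ UTR of an alternative transcript. The 2.15 peak had 3 reads over 1, and the lowest fold was −1.02. In the rAb list all 14 folds were above 0, with a median of 1.11. The highest was 3.98 at chr11:108937894-108937981 in intron 3, from 5 reads over 1, with a −log10 P of 2.41 and an interval of 0.82 to 9.54. It was followed by 2.07 in the 3′ UTR and by 1.65, and the lowest was 0.19. Coding sequence held 15 of the 26 mAb and 9 of the 14 rAb peaks. Among 2957 genes called in both colon lists, the 3 whose peak numbers and highest folds were closest to those of Axin2 were Fgfr2, Kmt2d and Prox1. Their Euclidean distances over the 4 values (log2 of the peak number and the highest log2 fold in each list) were 0.53, 0.62 and 0.70.

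Lgr5 (ENSMUSG00000020140.15), the R-spondin receptor that marks crypt base stem cells, had 1 called peak in all. It lay in the colon mAb list at chr10:115464477-115464545, in intron 11 of the main transcript and an exon of a non-coding one. Its fold of 2.56 came from 4 reads over 1, with an interval of −0.77 to 8.19. The number of Lgr5-positive cells, their RNA and its binding by DDX5 cannot be told apart in such bulk samples. What lay behind the single peak was not tested.

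Cd44 (ENSMUSG00000005087.17), a cell surface hyaluronan receptor and Wnt target of the crypt, carried the only member site of the rAb list. The site at chr2:102829353-102829483 lay in intron 15 of a transcript with 19 exons, with a fold of 3.07, a −log10 P of 9.60 and 24 reads over 9. Its interval was 1.91 to 4.36, so counting error reaches below the cutoff. By highest fold, Cd44 stood 122nd among the 124 genes with a site in that list. The mAb list had a peak over the same stretch with a fold of 1.84, a −log10 P of 4.49, 34 reads over 14 and an interval of 0.91 to 2.86. It failed the fold cutoff only. The 131-base sequence had 5 near copies elsewhere in the genome, aligned over 86 to 122 bases with 87.7% to 96.6% identity. Of the 5, 3 overlapped a called rAb peak, with the strand not considered. The mAb peak had 5 such copies too, 3 of them with a called mAb peak. Whether the reads came from Cd44 or from such copies was not tested. The 65 ribosomal RNA sequences annotated in RefSeq matched 10.4% of all mAb sites and 16.5% of all rAb sites. They hold the large-subunit RNA only in part, so whether the Cd44 peak matches the rest of it was not tested. The other mAb folds on Cd44 were 1.05 in exon 19, 0.56 in exon 16, 2.15 in intron 11 and 1.89 in exon 5. The exon 5 peak had 10 reads over 4 and an interval of 0.09 to 4.01. The other rAb folds were 1.65 in the 3′ UTR, 1.07 in exon 16 and 1.65 in exon 15.

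Myc, Ccnd1, Sox9 and Ephb2 are further targets of β-catenin/TCF, and none had a site or, in the small intestine, a listed peak. Myc (ENSMUSG00000022346.15), a growth-promoting transcription factor, had 3 mAb peaks, each with a fold of 0.56 from equal IP and input reads, and 1 rAb peak of 1.65 from 4 reads over 4. All lay in coding sequence. Ccnd1 (ENSMUSG00000070348.5), which encodes cyclin D1, had mAb folds of 2.37, −0.24 and 1.3 in the 3′ UTR and 0.56, 0.98 and 1.15 in coding sequence. The 2.37 peak had 7 reads over 2 and a −log10 P of 1.44. Its rAb folds were 2.24, 0.65, 1.07 and 1.07 in the 3′ UTR and 1.07 in exon 2. Sox9 (ENSMUSG00000000567.5), a transcription factor of crypt progenitor and Paneth cells, had 6 mAb peaks, all in coding sequence, with folds of −0.44, −0.44, −0.85, 1.89, 2.56 and 0.98. The 2.56 peak had 4 reads over 1. Ephb2 (ENSMUSG00000028664.14), the ephrin receptor that sorts cells along the crypt, had 11 mAb peaks, 8 of them in introns more than 500 bases from an exon. Its highest fold was 2.56, 7 peaks stood at 2.15 from 3 reads over 1, and the lowest, 0.24, lay at the start of exon 1.

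Over a whole list, the member peaks were no higher than other peaks in the colon. Their median log2 fold was 0.98 under mAb (95% interval of the median from ranks, 0.56 to 1.15), beside 1.15 over all called peaks. Under rAb it was 1.33 (0.83 to 1.65) beside 2.24, and for small intestine sites 4.58 (4.04 to 5.52) beside 4.29. Peaks of a gene share reads and transcripts, so these intervals are too narrow. The deposited P was under 0.05 for 8 mAb member peaks (7.08%, beside 9.23% of all) and 12 rAb member peaks (25%, beside 45.2%). Coding sequence held 43.4% of mAb member peaks (exact 95% interval 34.1 to 53.0), beside 49.8% of all. Under rAb it held 45.8% (31.4 to 60.8) beside 55.5%. For small intestine sites it held 0 of 14 (0% to 23.2%) beside 31.7%, and all 14 lay on Ctnnb1. The intervals of these shares are also too narrow, since they treat peaks of a gene as independent. Introns more than 500 bases from an exon held 34.5% of mAb member peaks, beside 18.3% of all, and Tcf7l2 gave 27 and Ephb2 8 of these 39 peaks. In the rAb list the 3′ UTR held 27.1% beside 13.8%.

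**Figure D3:**
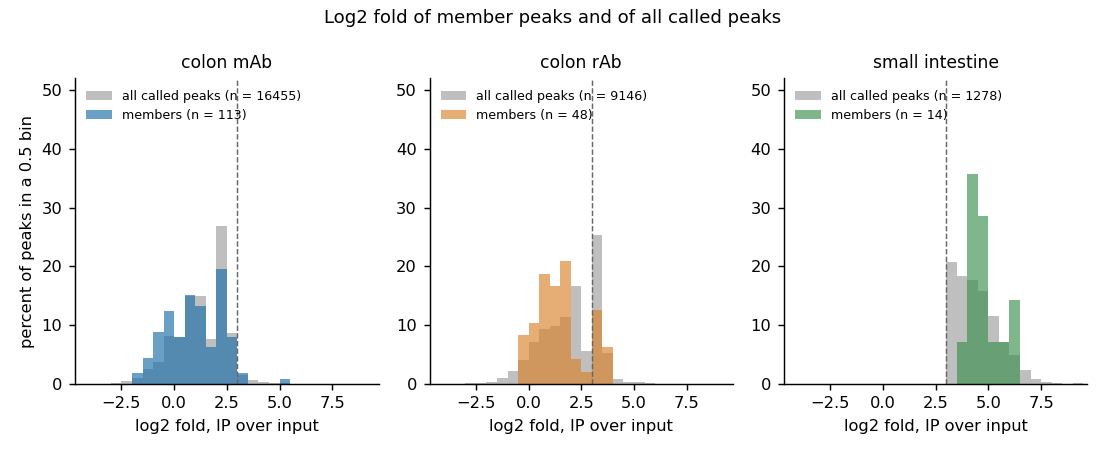
Share of peaks in each 0.5 step of log2 fold of IP over input, for member peaks (coloured) and all called peaks (grey) of each list, with the number of peaks in the legend and the cutoff of 3 dashed. The member peaks of the colon mAb and rAb lists lie to the left of or over the grey bars (medians 0.98 and 1.33, beside 1.15 and 2.24).

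Most colon values rested on few reads. IP and input reads could be traced from the deposited fold and P for 98.9% of mAb and 99.2% of rAb peaks with a usable P. The commonest fold of each list was taken to be 3 IP reads over 1 input read, an assumption on which all traced reads and intervals rest. Such calls were 24.8% and 24.4% of all called peaks, and 17.7% and 8.33% of member peaks. The search allowed no input below 1 read, so whether some inputs given as 1 were 0 was not tested. No site of the mAb list had fewer than 10 IP reads and none of the rAb list fewer than 7. Of the traced member peaks, 6 of 78 (mAb) and 8 of 44 (rAb) had that many, and the others had fewer reads than any site of their list. These minima follow from the P cutoff at the traced depths, since fewer IP reads do not reach it even over 1 input read. The small intestine file gives no reads, and its depth is unknown. Of epithelial marker genes such as Epcam and Cdh1, 10, 10 and 8 of 10 had a peak under mAb, rAb and in the small intestine. Small intestine enterocyte markers had a peak for 0, 0 and 8 of 10, and colonocyte and goblet cell markers for 9, 3 and 1. Of fibroblast and muscle markers 7, 5 and 0 of 10 had one, of immune markers 2, 2 and 0, and of endothelial, glial and neuronal markers 0, 1 and 0. The part of other cell types in the member peaks was not tested.

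The colon lists were also compared peak by peak. Of the 113 mAb member peaks 20 (17.7%) overlapped a rAb peak, beside 18.2% of all mAb peaks. Of the 48 rAb member peaks 19 (39.6%) overlapped a mAb peak, beside 32.0% of all rAb peaks. They formed 20 pairs on Axin2 (9), Ctnnb1 (8), Cd44 (2) and Ccnd1 (1). The rAb fold was above 0 and the mAb fold below 0 in 11 (55.0%), beside 20.2% of all 3291 pairs of the lists. The rAb fold was the higher in 18 of 20, with a median difference of 1.15, from −2.59 to 2.09. Over all pairs, rAb was higher in 76.8%, with a median difference of 0.67. In the 5 pairs where both intervals could be had, the intervals overlapped in every pair, the Cd44 and Ctnnb1 intron pairs included.

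**Figure D4:**
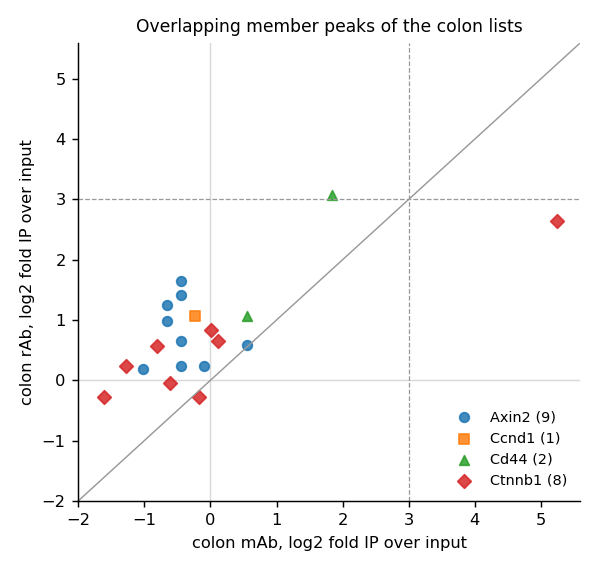
Log2 fold of IP over input in the colon mAb list (horizontal) and the colon rAb list (vertical) for the 20 pairs of overlapping member peaks, by gene, with the number of pairs in the legend. The diagonal marks equal values and the dashed lines the cutoff of 3. In 18 pairs the point lies above the diagonal, the largest exception being the Ctnnb1 intron 1 pair at 5.24 and 2.65.

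The wider pathway was read through 6 lists of 108 further genes. A called peak was found on 57 (mAb), 43 (rAb) and 5 (small intestine) of them, and a site on 1, 1 and 5. The shares with a peak were 52.8% and 39.8% in the colon, beside 22.5% and 15.5% of protein-coding genes. For the small intestine the share was 4.63%, beside 1.99%. Of the called genes 1.75% (mAb) and 2.33% (rAb) had a site, beside 2.58% and 2.84%. Expression was not matched, and nothing particular to the pathway is read from these shares. Wnt ligands and secretion genes had next to none. Of 13, 0 (mAb), 1 (rAb) and 0 (small intestine) had a peak, that of Wnt6 at 1.65. Of 20 receptors and membrane regulators, 10, 6 and 1 had a peak and 1, 1 and 1 a site. Rnf43 (ENSMUSG00000034177.15), a ubiquitin ligase that removes Wnt receptors from the cell surface, gave the colon sites at the same stretch of exon 4 of 9. The mAb fold was 3.26 with a −log10 P of 6.40, from 26 reads over 4 and with an interval of 1.74 to 5.24. The rAb fold was 5.07 with a −log10 P of 16.3, from 32 reads over 3 and with an interval of 3.39 to 7.42. The intervals overlapped. Its other folds ran up to 3.02 (mAb) and 3.65 (rAb) without passing both cutoffs. Lgr4, the R-spondin receptor related to Lgr5, had 2 sites in the small intestine, the higher at 3.51. Among receptors without a site in any list, the highest folds with P under 0.05 were 3.65 on Ror1 and 3.24 on Lrp6 and Znrf3 (rAb), from 3 or 4 reads over 1.

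Of 20 cytoplasmic and destruction complex genes, 14, 9 and 2 had a peak and 0, 0 and 2 a site. The small intestine sites lay on Gsk3a, a kinase that phosphorylates β-catenin (3.56), and Usp9x, a deubiquitinase (5.12). Among genes without a site, the highest folds were 3.98 on Nkd1 and 3.65 on Csnk1g1 (rAb), from 5 and 4 reads over 1. Of 20 nuclear factors, 13, 11 and 0 had a peak and none a site, and the highest were 3.65 on Tle3 (rAb) and 3.37 on Crebbp (mAb). Of 20 further targets, 11, 8 and 2 had a peak and 0, 0 and 2 a site. Jun, an immediate-early transcription factor, had 6 small intestine sites up to 5.20, and Vegfa, the vascular growth factor, 7 up to 6.80. Among targets without a site in any list, the highest were 3.24 on Ets2 (rAb) and 2.89 on Klf5 (mAb). Of 15 crypt stem cell genes, 9, 8 and 0 had a peak and none a site. The highest there was 3.65 on Hopx, followed by 3.24 on Smoc2, Lrig1 and Itgb1 (rAb), from 3 or 4 reads over 1.

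**Figure D5:**
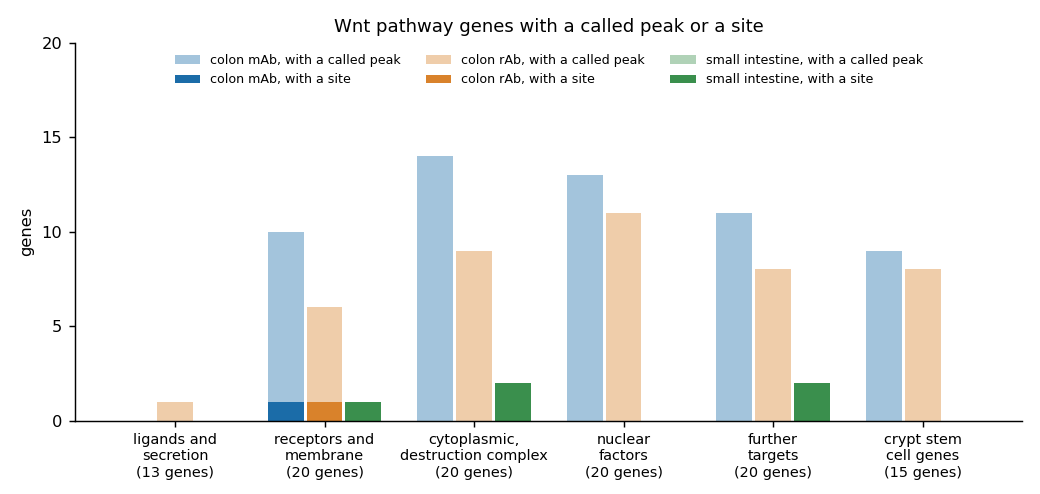
Number of genes of each Wnt list with a called peak (pale bars) and with a site (dark bars) in each peak list, with the number of genes in a list under its name. Called peaks occur on up to 14 genes of a list, and sites on at most 2.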

How the data were processed

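eCLIPseq was done on IECs of mouse small intestine and colon. Per the labels and methods, reads were handled with cutadapt (version 1.9.1), STAR (2.4.0i) and SAMtools (1.4.1) on mm10, peaks were called with CLIPper on the IP, and each was normalised to its size-matched input. The deposited values are a log2 fold change of IP over input and a −log10 P-value for each peak, which the authors capped at 400. Peaks of the small intestine passed IDR over 2 replicates, pooled into 1 list, and both cutoffs of 3. A further list, with 2 value columns, could be tied to none of the labelled samples and was left out. Depths of the libraries are not in the files.

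Peaks were given to genes by an overlap of at least 1 base on the strand. A region was taken as coding sequence, then 5′ UTR, 3′ UTR, non-coding exon and intron (within 500 bases of an exon or farther). For colon peaks, pairs of whole read numbers (IP, input), each at least 1, were searched for that returned the fold and the P, the latter within 1%. The commonest fold was read as 3 over 1, which set the input depth over the IP depth at 1.48 (mAb) and 3.15 (rAb). Exact (Clopper-Pearson) 95% intervals cover counting error only. Near copies were sought with BLAST+ (2.17.0): at least 60% of the peak at 85% identity or more, and for ribosomal RNA 20 bases at 90%. Scripts ran in Python with pysam and SciPy and were tested on simulated data. All 10 genes were named, with every peak where a list had 10 or fewer and otherwise the best 3 and the lowest. Of the pathway lists, every gene with a site was named, and the 2 with the highest fold at P under 0.05 without one, with ties. The members and lists were chosen with earlier results of these data known.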

Additional observations from a re-analysis of the deposited data

Results flagged for a closer look

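In 11 of the 20 pairs of overlapping colon member peaks, the log2 fold of IP over input was above 0 in the rAb list and below 0 in the mAb list. This is 55.0% of the member pairs, beside 20.2% of all 3291 pairs of the lists, and the 20 pairs come from 4 genes. With 1 list per antibody name this difference was not tested. On Axin2 there were 8 such pairs. Their rAb and mAb folds were 0.19 and −1.02, 0.98 and −0.66, 1.41 and −0.44, 1.24 and −0.66, 0.24 and −0.44, 0.24 and −0.10, 1.65 and −0.44, and 0.65 and −0.44. The Ccnd1 pair had 1.07 and −0.24. On Ctnnb1 the pairs had 0.57 and −0.81, and 0.24 and −1.28. All 11 mAb peaks were listed with a −log10 P of 0, so their reads could not be traced. The interval of the rAb fold lay above 0 in 1 of the 11, that of Axin2 exon 3 at 1.41. The input over IP depth was 1.48 for mAb and 3.15 for rAb, and its part in these values was not tested.

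The small intestine site that begins in exon 1 of Ctnnb1 had a fold of 3.99, while the colon peaks that touch it had −0.17 (mAb) and −0.28 (rAb). The mAb peak shares only 2 of the site's 39 bases and the rAb peak 23, so the values describe different stretches in large part. This difference was not tested, the small intestine list holds only folds above 3, and tissue, library protocol and age cannot be told apart in it.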

How the results depend on the processing

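Of 70 values recomputed under other settings, 62 stayed within their error or within 1.5 times a count, and 8 moved. Keeping only peaks with at least 5 traced IP reads left 26 of the 113 mAb and 16 of the 48 rAb member peaks. The median log2 fold moved up to 1.20 (mAb), while that of rAb, 0.90, stayed within its interval. This setting also drops untraced peaks whatever their depth, and only 78 mAb and 44 rAb member peaks were traced. Among the member peaks, 32 (mAb) and 4 (rAb) were listed with a −log10 P of 0 and so left. No effect of depth is therefore read from these medians. A log2 fold cutoff of 1 gave 2 mAb member sites, the second being the Cd44 intron peak, and a cutoff of 4 left 0 in the rAb list. Leaving out sites with a near copy elsewhere, an alternative chosen after seeing the data, also left 0 rAb member sites. With a reciprocal overlap of 50%, 12 member peaks of either colon list were shared. Of the 17 highest folds of a gene in a colon list, 7 had no value at P under 0.05 and 6 none at 5 reads, since no peak was left. Leaving out peaks mostly in repeat-masked sequence, also chosen after seeing the data, moved no count of member peaks by over 1.5 times. No paired analysis was possible because each group has 1 list, and no replicate could be left out for the same reason. No colon peak with fewer than 10 (mAb) or 7 (rAb) IP reads was a site, which follows from the P cutoff at the traced depths. The small intestine list holds no peak below the cutoffs, so nothing is known of weaker peaks there.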
